A study of Mus musculus with 11 samples.

Results

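Iron handling and ferroptosis genes were read from a whole-heart RNA sequencing experiment in mice as a set of 10 genes: Tfrc, Fth1, Ftl1, Ncoa4, Slc40a1, Hmox1, Gpx4, Slc7a11, Aifm2 and Acsl4. They were chosen by name from the 54532 genes of the deposited count table. Of the 10, 9 had enough counts to enter the tests of 14862 genes, and Slc7a11 did not. The C57BL/6 hearts fell into 3 groups, all labelled 26 weeks, without saying whether this is age or time on treatment. The METTL3 group (n = 4) carried the treatment HFD+STZ+AAV METTL3, the HFD+STZ group (n = 4) carried HFD+STZ alone, and the chow group (n = 3) was fed chow. METTL3 hearts therefore share HFD+STZ with the HFD+STZ hearts and differ from chow hearts in both treatments. HFD and STZ are usual short forms for a high-fat diet and streptozotocin, which damages insulin-producing cells, and AAV is a viral vector for gene delivery. METTL3 is the catalytic subunit of the enzyme that writes N6-methyladenosine on RNA. The labels give neither the promoter of the vector nor a control vector for the other 2 groups.

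Ferroptosis is a form of cell death in which iron drives the peroxidation of membrane lipids. Cells take up iron through the transferrin receptor (Tfrc), store it in ferritin built of heavy (Fth1) and light (Ftl1) chains, release it from ferritin through the cargo receptor NCOA4, and export it through ferroportin (Slc40a1), while haem oxygenase 1 (Hmox1) frees iron from haem. GPX4 reduces lipid peroxides with glutathione, which depends on cystine imported by SLC7A11, and AIFM2 (FSP1) protects lipids through coenzyme Q, whereas ACSL4 loads membranes with the polyunsaturated lipids that peroxidise. When iron is scarce, the iron regulatory proteins ACO1 and IREB2 bind hairpins in messenger RNA called iron-responsive elements, blocking translation when the hairpin lies in a 5′ UTR and stabilising the transcript when it lies in the 3′ UTR of Tfrc.

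These hairpins are shown because they place 4 of the genes under that post-transcriptional control, which RNA counts cover only in part. GENCODE M21 transcripts (GRCm38, the assembly also called mm10) were searched on the sense strand for a C, 5 bases, the loop CAGTGN with any final base but G, and 5 bases pairing with the first 5, with G-T pairs allowed. The pattern occurred in the 3′ UTR of Tfrc at 4 places, and in the 5′ UTR of Fth1, Ftl1 and Slc40a1 at 1 place each. Across 21951 protein-coding genes it was found in a 5′ UTR of 23 (0.105%) and in a 3′ UTR of 110 (0.501%). Each stretch below is 29 bases long, read 5′ to 3′ on the gene's strand, with the loop in capitals.
Tfrc 3′ UTR, chr16:32631219-32631247, plus strand: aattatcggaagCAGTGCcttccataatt
Tfrc 3′ UTR, chr16:32631598-32631626, plus strand: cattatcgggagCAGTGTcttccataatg
Tfrc 3′ UTR, chr16:32631663-32631691, plus strand: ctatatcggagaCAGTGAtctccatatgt
Tfrc 3′ UTR, chr16:32631710-32631738, plus strand: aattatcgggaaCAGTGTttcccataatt
Fth1 5′ UTR, chr19:9982732-9982760, plus strand: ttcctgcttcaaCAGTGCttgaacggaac
Ftl1 5′ UTR, chr7:45459779-45459807, minus strand: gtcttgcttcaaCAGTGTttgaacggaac
Slc40a1 5′ UTR, chr1:45925465-45925493, minus strand: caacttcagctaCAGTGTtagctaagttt
The Fth1 and Ftl1 hairpins read alike through the stem, while the Slc40a1 and Tfrc hairpins do not share their stem bases. The first 5 bases of the loop are the same in all because the search required them. A match describes these letters and is not a measurement of binding.

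The libraries held 13900531 to 16952639 counts each, and the share taken by mitochondrial genes separated the groups without overlap. It was 37.7% to 45.5% in METTL3 hearts, 28.6% to 32.5% in HFD+STZ hearts and 9.28% to 27.4% in chow hearts. Genes with a count numbered 17317 to 19157 in METTL3 hearts, 19814 to 20410 in HFD+STZ hearts, and 20769, 20672 and 15734 in chow hearts, so fewer were detected in every METTL3 heart than in every HFD+STZ heart. The mitochondrial share thus moves with all 3 comparisons below, and the number of detected genes with METTL3 versus HFD+STZ. Scaling without mitochondrial genes left the 9 tested members short of the threshold in every comparison, and a part of either measure beyond scaling was not tested. Chow replicate 3 stood apart, with the lowest of both. Its genes under 1 kb were higher than in the other chow libraries by a median of 1.07 on the log2 scale, and its genes over 8 kb were lower, with a median of -0.48. Cardiomyocyte markers, 10 of 10 with counts in every library, summed to 40473 to 47690 CPM (counts scaled to library size) in METTL3 hearts, 40143 to 56813 CPM in HFD+STZ hearts and 45952 to 54249 CPM in chow hearts. The sum hides members that separated METTL3 from HFD+STZ hearts. Higher were Actc1 (10433 to 11986 against 6960 to 9363 CPM) and Pln (1875 to 2378 against 1188 to 1629 CPM). Ttn was also higher (3103 to 3643 against 2112 to 2938 CPM), while Mb was lower (2704 to 3952 against 4780 to 7281 CPM). The other cardiomyocyte markers overlapped between these groups. Macrophage markers, 12 of 14 with counts in every library and Marco at or near 0 throughout, summed to 196 to 343 CPM in METTL3 hearts, 288 to 689 CPM in HFD+STZ hearts and 457 to 899 CPM in chow hearts. Lyz2 was the largest part of that sum, at 82.3 to 166 CPM in METTL3 hearts and 192 to 384 CPM in chow hearts. Vsig4 went the other way, at 4.75 to 7.10 CPM in METTL3 hearts and 3.06 to 3.77 CPM in chow hearts. Adgre1, Cd163, Mrc1, Timd4 and Clec4f overlapped between these groups. The part of the cardiomyocyte and macrophage markers in any result below was not tested. Mettl3 itself reached 6.52 to 10.8 CPM in METTL3 hearts, 4.39 to 7.82 CPM in HFD+STZ hearts and 3.04 to 7.88 CPM in chow hearts. Its log2 fold change in METTL3 versus HFD+STZ hearts was 0.40 ± 0.32 (SE, adjusted p = 0.759 by edgeR's quasi-likelihood test with Benjamini-Hochberg adjustment), so the METTL3 direction rests on the label. The sample codes 25 to 33 hold METTL3 replicates 1 to 3 and HFD+STZ replicates 2 to 4, and the codes 78 to 98 hold METTL3 replicate 4, HFD+STZ replicate 1 and all chow hearts. Whether a code range marks a batch is not given, and within the lower range no comparison with chow can be made.

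None of the 9 tested genes passed the 5% threshold in any of the 3 comparisons, and Slc7a11 was not tested. All members' values below are CPM on TMM-scaled library sizes, and all adjusted p-values are from edgeR's quasi-likelihood test over 14862 genes unless another tool is named. In METTL3 versus HFD+STZ hearts no gene at all passed (0%), while 1346 had an unadjusted p under 0.05 and DESeq2 called 129. In METTL3 versus chow hearts 475 genes passed (3.2%), and in HFD+STZ versus chow hearts 25 passed (0.168%). At an unadjusted edgeR p under 0.05 stood 1 of the 9 tested members in METTL3 versus HFD+STZ hearts (9.06% of all genes), 4 in METTL3 versus chow hearts (21.7%) and 2 in HFD+STZ versus chow hearts (12.1%). Library ranges did not overlap for 1 of 9 in each comparison, namely Hmox1, Acsl4 and Slc40a1 in that order, where 9.57%, 18.7% and 10.4% of all genes did not overlap. By direction, METTL3 hearts lay wholly above HFD+STZ hearts for 5.43% of genes and wholly below for 4.14%, and wholly above chow hearts for 10.5% and below for 8.26%. HFD+STZ hearts lay wholly above chow hearts for 5.52% of genes and wholly below for 4.88%. In whole hearts, fewer cells of a type and less RNA per cell cannot be told apart.

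**Figure D1:**
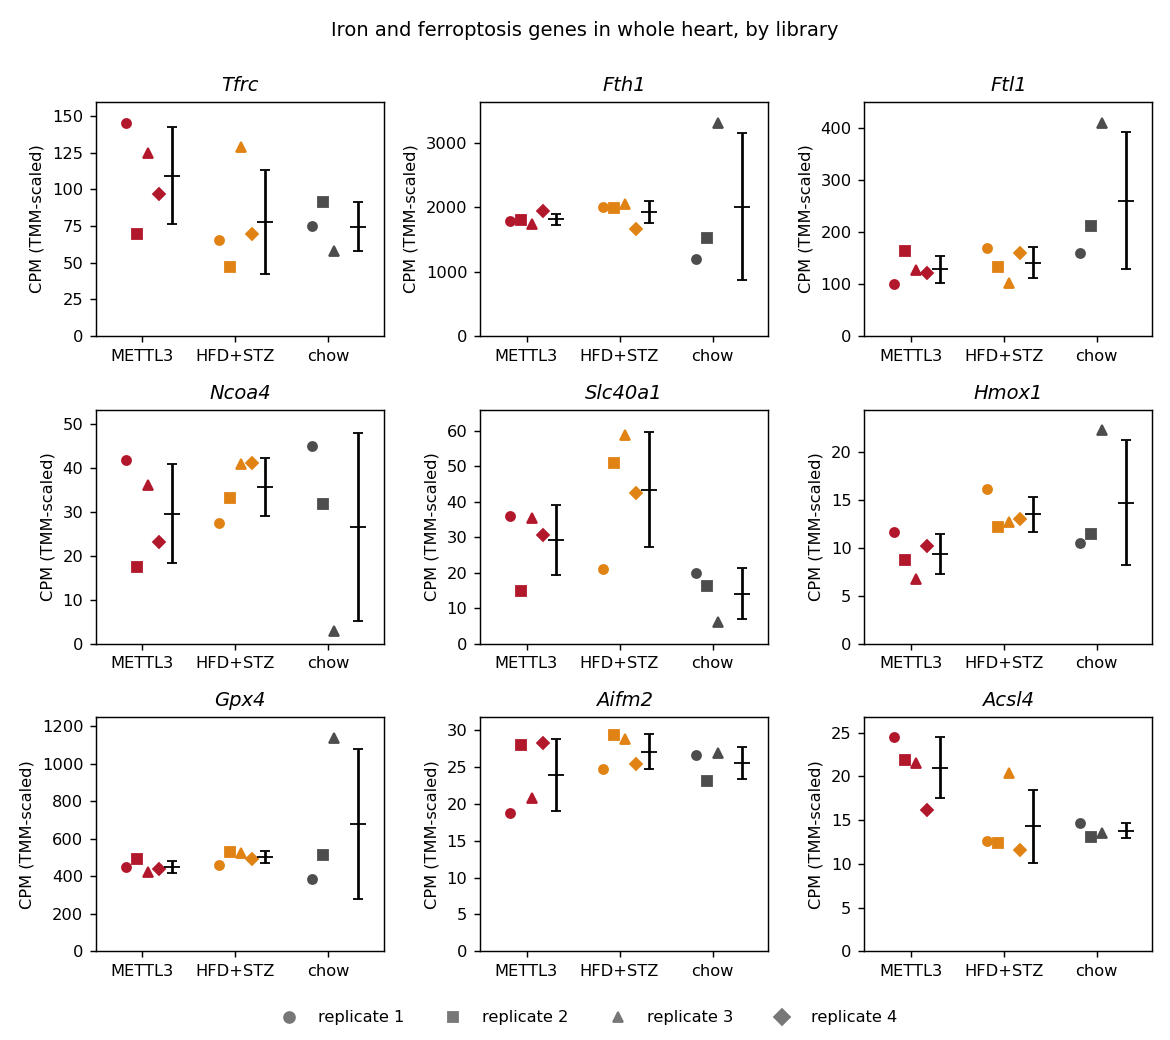
CPM of the 9 tested genes in each library, with METTL3, HFD+STZ and chow hearts on the horizontal axis, replicates by marker shape, and a bar for the mean ± SD of each group. Chow replicate 3 is the highest of all 11 libraries for Fth1, Ftl1, Hmox1 and Gpx4 and the lowest for Ncoa4 and Slc40a1.

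The genes differed widely in level per length of transcript. Fth1 had the highest level, a median of 2081 CPM per kilobase over the 11 libraries, with Gpx4 at 285 and Ftl1 at 119 CPM per kilobase. This order of the 3 held in 11 of 11 libraries. Tfrc had a median of 12.1 CPM per kilobase, above Hmox1 at 6.67 in 10 of 11 libraries. Hmox1 and Aifm2 (6.48 CPM per kilobase) changed places between libraries, with Hmox1 higher in 6 of 11. Ncoa4 (3.54), Slc40a1 (3.39) and Acsl4 (2.72 CPM per kilobase) did not keep an order either, with Ncoa4 above Slc40a1 in 5 of 11 libraries and Slc40a1 above Acsl4 in 5 of 11. Slc7a11 was close to the detection limit, with a median of 0.00437 CPM per kilobase.

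Tfrc (ENSMUSG00000022797, chromosome 16, 32608920 to 32632794), the receptor for transferrin-bound iron, had 145, 69.4, 125 and 96.9 CPM in METTL3 hearts, 65.3, 47.0, 129 and 69.8 CPM in HFD+STZ hearts, and 74.8, 91.1 and 58.0 CPM in chow hearts. Of the METTL3 hearts 3 of 4 exceeded all chow hearts, but HFD+STZ replicate 3 lay among them and the groups overlapped. In the fit, Tfrc had a log2 fold change of 0.49 ± 0.30 in METTL3 versus HFD+STZ hearts (SE, edgeR adjusted p = 0.660) and 0.55 ± 0.33 in METTL3 versus chow hearts (edgeR adjusted p = 0.357). HFD+STZ and chow hearts were close, at 0.06 ± 0.33 with a 95% interval of -0.65 to 0.77. Among sample codes 25 to 33 alone, the METTL3 versus HFD+STZ value was 0.46. Single libraries moved it, to 0.32 without METTL3 replicate 1, and to 0.31 and 0.85 when HFD+STZ replicate 2 or HFD+STZ replicate 3 was dropped. When gene length and GC content were both modelled it was 0.20, and the METTL3 versus chow value was 0.21.

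Ferritin heavy chain, Fth1 (ENSMUSG00000024661, chromosome 19, 9982703 to 9985092), had 1782, 1802, 1736 and 1939 CPM in METTL3 hearts, 2005, 1985, 2049 and 1666 CPM in HFD+STZ hearts, and 1198, 1529 and 3314 CPM in chow hearts. The METTL3 and HFD+STZ hearts lay within a narrow band, above chow replicates 1 and 2 and far below chow replicate 3. With all libraries the log2 fold change was -0.15 ± 0.29 in METTL3 versus chow hearts (SE, edgeR adjusted p = 0.809) and -0.06 ± 0.29 in HFD+STZ versus chow hearts (edgeR adjusted p = 0.943). Without chow replicate 3 the same differences were 0.40 and 0.50, so that library set their sign. In METTL3 versus HFD+STZ hearts the value was -0.09 ± 0.27 (edgeR adjusted p = 0.958), and -0.10 without that library.

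The light chain, Ftl1 (ENSMUSG00000050708, chromosome 7, 45457944 to 45459884), had 101, 163, 127 and 120.3 CPM in METTL3 hearts, 169, 133, 102 and 159 CPM in HFD+STZ hearts, and 159.7, 211 and 409 CPM in chow hearts. Chow hearts were the higher ones, although chow replicate 1 lay inside both other groups' ranges. In METTL3 versus chow hearts the log2 fold change was -1.02 ± 0.30 with a 95% interval of -1.67 to -0.38, which missed the threshold (edgeR adjusted p = 0.0761). DESeq2 called it, at -1.05 with an adjusted p of 0.0179, as did edgeR without the low-count filter (-1.02, adjusted p = 0.0217) and without chow replicate 1 (-1.28, adjusted p = 0.0310). Without chow replicate 3 it was -0.55 (edgeR adjusted p = 0.169). In HFD+STZ versus chow hearts the value was -0.89 ± 0.30 (SE, edgeR adjusted p = 0.294), and -0.39 without chow replicate 3. The sign was negative in 23 of 23 alternatives in both comparisons. Macrophage marker sums, given above, were also lower in METTL3 than in chow hearts with no overlap. Of the single markers, Vsig4 was higher, and Adgre1, Cd163, Mrc1, Timd4 and Clec4f overlapped. The part of these markers in the Ftl1 values was not tested. METTL3 and HFD+STZ hearts differed in Ftl1 by -0.14 ± 0.28 (edgeR adjusted p = 0.927).

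The balance of the 2 ferritin chains within a library was less affected by chow replicate 3, since both chains were high there. As counts per length, Fth1 exceeded Ftl1 by 27.3, 17.1, 21.1 and 24.9 times in METTL3 hearts, by 18.4, 23.1, 31.1 and 16.2 times in HFD+STZ hearts, and by 11.6, 11.2 and 12.5 times in chow hearts. All 8 HFD+STZ-treated hearts, with or without the vector, lay above all 3 chow hearts, and METTL3 and HFD+STZ hearts overlapped. The mean ratio was 22.6 ± 4.49 in METTL3 hearts, 22.2 ± 6.60 in HFD+STZ hearts and 11.8 ± 0.680 in chow hearts (SD). This ratio was chosen after the values were seen and is a description without a test. Of all other tested genes, 7.07% gave a Fth1-over-gene ratio that was likewise higher in every METTL3 than in every chow heart, and 8.01% did so for HFD+STZ against chow. For METTL3 against HFD+STZ, where the Ftl1 ratio overlapped, the share was 1.74%.

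**Figure D2:**
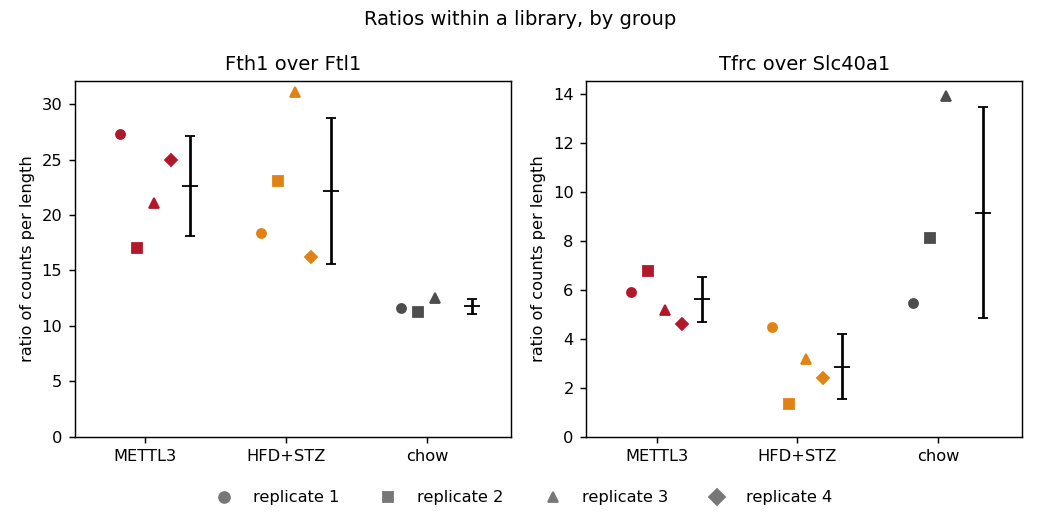
Ratio of counts per length of Fth1 over Ftl1 (left) and of Tfrc over Slc40a1 (right) in each library, with the mean ± SD of each group as a bar. The chow hearts sit at 11.2 to 12.5 for ferritin, below every METTL3 and HFD+STZ heart, and the METTL3 hearts sit above every HFD+STZ heart for Tfrc over Slc40a1.

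Ncoa4 (ENSMUSG00000056234, chromosome 14, 32159865 to 32179855), which carries ferritin to lysosomes for iron release, had 41.8, 17.4, 36.1 and 23.2 CPM in METTL3 hearts, 27.4, 33.1, 41.0 and 41.2 CPM in HFD+STZ hearts, and 45.0, 31.8 and 2.98 CPM in chow hearts. Apart from chow replicate 3, which was 12.9 times below the mean of the other chow hearts, the groups shared the same range. For Ncoa4 the log2 fold change was 0.15 ± 0.58 in METTL3 versus chow hearts (SE, edgeR adjusted p = 0.908) and -0.38 without that library. In HFD+STZ versus chow hearts it was 0.42 ± 0.58 (edgeR adjusted p = 0.777), and -0.10 without it. METTL3 versus HFD+STZ hearts gave -0.27 ± 0.54 (edgeR adjusted p = 0.927), so none of the 3 directions was resolved.

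Ferroportin, Slc40a1 (ENSMUSG00000025993, chromosome 1, 45908068 to 45926523), is the cell's iron exporter. It had 36.0, 15, 35.3 and 30.6 CPM in METTL3 hearts, 21.2, 50.8, 59.0 and 42.6 CPM in HFD+STZ hearts, and 20, 16.3 and 6.08 CPM in chow hearts. All HFD+STZ hearts lay above all chow hearts, though replicate 1 did so by little, while METTL3 replicate 2 lay among the chow hearts. The HFD+STZ mean of 43.4 ± 16.3 CPM stood against 14.1 ± 7.22 CPM in chow (SD, n = 4 and 3). This was the largest fitted difference among the 9 genes, a log2 fold change of 1.61 ± 0.44 with a 95% interval of 0.67 to 2.56, or 3.06-fold.

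The Slc40a1 difference in HFD+STZ versus chow hearts did not pass after adjustment (edgeR adjusted p = 0.196). It passed with DESeq2 (1.63, adjusted p = 0.0129) and with edgeR without the low-count filter (1.63, adjusted p = 0.00836). It also passed with edgeR when chow replicate 3 and HFD+STZ replicate 1 were both left out (1.48, adjusted p = 0.0158). It was 1.26 without chow replicate 3 alone (edgeR adjusted p = 0.208) and 1.17 with the sample code range in the model (edgeR adjusted p = 0.931). METTL3 hearts stood between the other groups on average. Their log2 fold change was 1.05 ± 0.43 against chow (SE, edgeR adjusted p = 0.180), or 0.68 without chow replicate 3, and -0.57 ± 0.39 against HFD+STZ (edgeR adjusted p = 0.693), or -0.83 among sample codes 25 to 33 and -0.35 without METTL3 replicate 2. The direction was the same in 23 of 23 alternatives against chow, and in 24 of 24 for METTL3 versus HFD+STZ hearts.

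Import against export, as Tfrc over Slc40a1 in counts per length, was 5.89, 6.76, 5.15 and 4.61 in METTL3 hearts, 4.49, 1.35, 3.19 and 2.39 in HFD+STZ hearts, and 5.44, 8.11 and 13.9 in chow hearts. Every METTL3 heart lay above every HFD+STZ heart, and every chow heart did so too. The mean ratio was 5.60 ± 0.930 in METTL3 hearts and 2.85 ± 1.33 in HFD+STZ hearts (SD, n = 4 each). The ratio was likewise chosen after the values were seen, and 3.69% of other genes gave a Tfrc-over-gene ratio that was higher in every METTL3 than in every HFD+STZ heart.

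Hmox1 (ENSMUSG00000005413, chromosome 8, 75093621 to 75100589), which opens the haem ring and frees its iron, had 11.7, 8.69, 6.80 and 10.2 CPM in METTL3 hearts, 16.2, 12.2, 12.8 and 13.0 CPM in HFD+STZ hearts, and 10.5, 11.5 and 22.3 CPM in chow hearts. Every METTL3 heart lay below every HFD+STZ heart, but the nearest values were only 11.7 and 12.2 CPM. In METTL3 versus HFD+STZ hearts Hmox1 had a log2 fold change of -0.53 ± 0.26 with a 95% interval of -1.10 to 0.03 (SE, edgeR adjusted p = 0.569), -0.49 among sample codes 25 to 33 and -0.35 with length and GC content modelled. Against chow, METTL3 hearts differed by -0.66 ± 0.28 (edgeR adjusted p = 0.192), or by -0.24 without chow replicate 3. HFD+STZ versus chow hearts gave -0.12 ± 0.28 (edgeR adjusted p = 0.874), and 0.31 without that library. Macrophages, which break down haem from red cells, are a known site of Hmox1 expression. Their marker sums ran lower in METTL3 than in HFD+STZ hearts with overlap, and their part was not tested.

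Gpx4 (ENSMUSG00000075706, chromosome 10, 80047166 to 80056439), the central enzyme against ferroptosis, had 449, 492, 421 and 439 CPM in METTL3 hearts, 461, 531, 522 and 492 CPM in HFD+STZ hearts, and 388, 512 and 1136 CPM in chow hearts. The METTL3 and HFD+STZ ranges overlapped around 461 to 492 CPM, and chow replicate 3 alone stood far above. The log2 fold change was -0.16 ± 0.27 in METTL3 versus HFD+STZ hearts with a 95% interval of -0.74 to 0.43 (SE, edgeR adjusted p = 0.911). Against chow it was -0.59 ± 0.29 in METTL3 hearts (edgeR adjusted p = 0.255) and -0.44 ± 0.29 in HFD+STZ hearts (edgeR adjusted p = 0.542). Without chow replicate 3 these were -0.01 and 0.16.

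Reads of Gpx4 can be shared with Gpx4-ps2, a near-identical processed copy, which held 12.9% to 20.3% of the pair's summed CPM. The sum averaged 526 ± 40.1 CPM in METTL3 hearts, 596 ± 37.4 CPM in HFD+STZ hearts and 835 ± 517 CPM in chow hearts (SD). The copy had 73.6, 88.5, 62.4 and 79.7 CPM in METTL3 hearts, 86.3, 105, 88.0 and 96.5 CPM in HFD+STZ hearts, and 75.3, 104 and 289 CPM in chow hearts. Like Gpx4 it was far higher in chow replicate 3 than elsewhere, and the other 10 libraries overlapped across groups. Its log2 fold change was -0.31 ± 0.33 in METTL3 versus HFD+STZ hearts, -1.04 ± 0.35 in METTL3 versus chow hearts and -0.73 ± 0.35 in HFD+STZ versus chow hearts (SE, edgeR adjusted p = 0.825, 0.114 and 0.420). The values against chow were not refitted without that library. Ftl1-ps1 took at most 87 counts in a library. Of 15 ferritin and other related genes or pseudogenes in the table, 10 were at 0 in every library.

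Slc7a11 (ENSMUSG00000027737, chromosome 3, 49892526 to 50443614), which imports cystine for glutathione, had 0, 0, 3 and 0 counts in METTL3 hearts, 4, 1, 1 and 0 counts in HFD+STZ hearts, and 6, 3 and 0 counts in chow hearts. These are sums of 3, 6 and 9 counts, too few for a test. A count of 0 still allows up to 3 counts, or 0.169 to 0.269 CPM in the 5 libraries at 0, and this limit covers counting error only. No fold change is given.

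Aifm2 (ENSMUSG00000020085, chromosome 10, 61715263 to 61739260), which recycles coenzyme Q, varied least of the 9. It had 18.7, 28, 20.8 and 28.2 CPM in METTL3 hearts, 24.7, 29.4, 28.8 and 25.4 CPM in HFD+STZ hearts, and 26.7, 23.1 and 26.9 CPM in chow hearts, and all 3 groups overlapped. The log2 fold changes were -0.18 ± 0.17 in METTL3 versus HFD+STZ hearts, -0.10 ± 0.18 in METTL3 versus chow hearts and 0.08 ± 0.18 in HFD+STZ versus chow hearts (SE, edgeR adjusted p = 0.796, 0.804 and 0.867). Their 95% intervals ran from -0.54 to 0.47 in all. The opposite-strand gene H2afy2 overlaps Aifm2 and had at most 120 counts in a library, so that without a stated strand setting some shared reads cannot be told apart.

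Acsl4 (ENSMUSG00000031278, chromosome X, 142317993 to 142390535), which prepares polyunsaturated fatty acids for membrane lipids, had 24.5, 21.8, 21.5 and 16.1 CPM in METTL3 hearts, 12.6, 12.4, 20.4 and 11.6 CPM in HFD+STZ hearts, and 14.7, 13.1 and 13.5 CPM in chow hearts. METTL3 hearts were the high ones, above every chow heart and above every HFD+STZ heart but replicate 3. The log2 fold change was 0.56 ± 0.21 in METTL3 versus HFD+STZ hearts, with a 95% interval of 0.11 to 1.01 and an unadjusted p of 0.0187 (edgeR adjusted p = 0.460). In METTL3 versus chow hearts it was 0.61 ± 0.23 (SE, edgeR adjusted p = 0.142), and HFD+STZ versus chow hearts gave 0.05 ± 0.22 (edgeR adjusted p = 0.943). Chow replicate 3 did not stand out here, and without it the METTL3 versus chow value was 0.59. That value was 0.33 with the sample code range in the model, 0.27 with GC content modelled and 0.26 with length and GC content modelled. The METTL3 versus HFD+STZ value was 0.61 among sample codes 25 to 33, and 0.25 when gene length and GC content were both modelled.

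**Figure D3:**
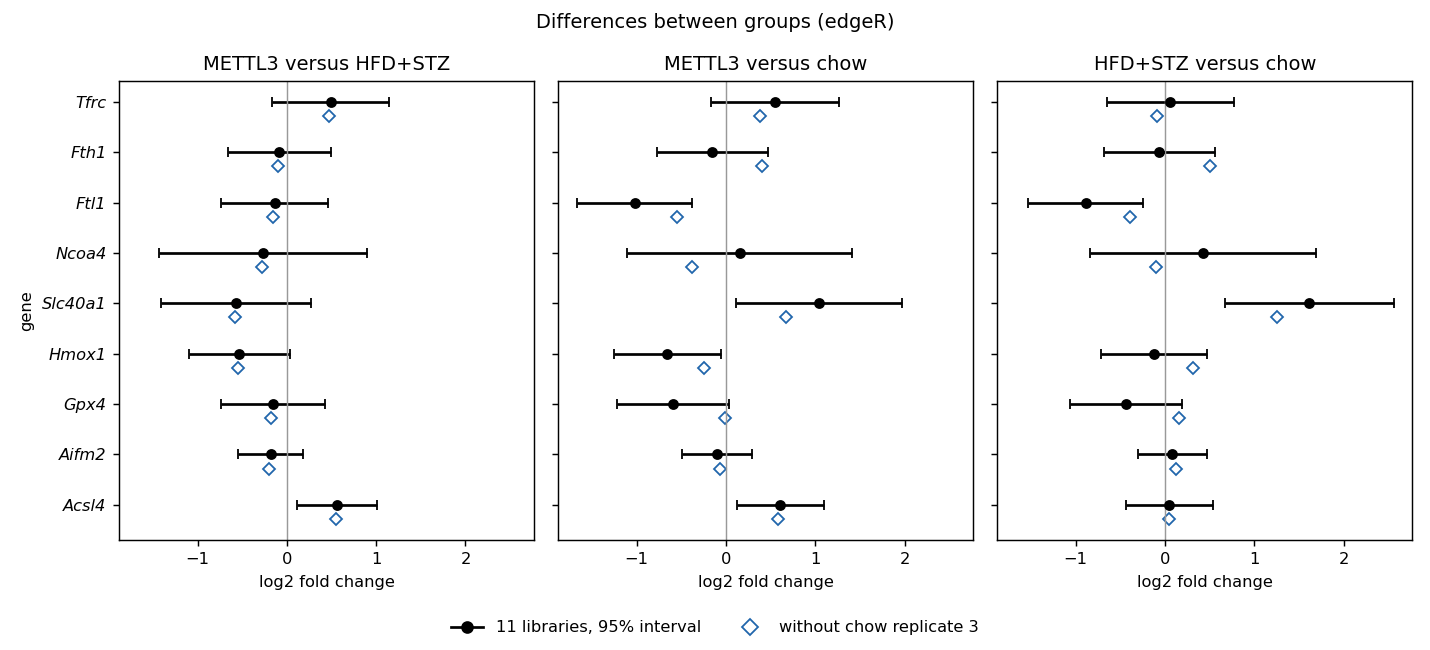
Log2 fold change of each tested gene (horizontal axis) in the 3 comparisons, with 95% intervals from the edgeR fit of 11 libraries as black bars and the value without chow replicate 3 as open diamonds. In both comparisons with chow the diamonds of Fth1, Ftl1, Gpx4, Hmox1, Ncoa4 and Slc40a1 lie away from the black points, while in METTL3 versus HFD+STZ hearts they lie close to them.

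Chow replicate 3 was the highest of 11 libraries for 4 of the genes and the lowest for 2, and the split followed their length. Its log2 CPM minus the mean of the other chow hearts was 1.29 for Fth1 (866 bases), 1.16 for Ftl1 (1340 bases), 1.35 for Gpx4 (1724 bases) and 1.02 for Hmox1 (1751 bases). The same difference was -1.55 for Slc40a1 (9000 bases) and -3.61 for Ncoa4 (9365 bases). The genes of middle length, Aifm2, Acsl4 and Tfrc, differed by 0.11, -0.04 and -0.51. The medians over all tested genes shifted in the same order in that library, from 1.07 under 1 kb and 0.65 at 1 to 2 kb, through 0.04 at 2 to 4 kb and -0.24 at 4 to 8 kb, to -0.48 over 8 kb. Among the 9 genes, Ncoa4 and Slc40a1 lay furthest below the median of their length class.

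**Figure D4:**
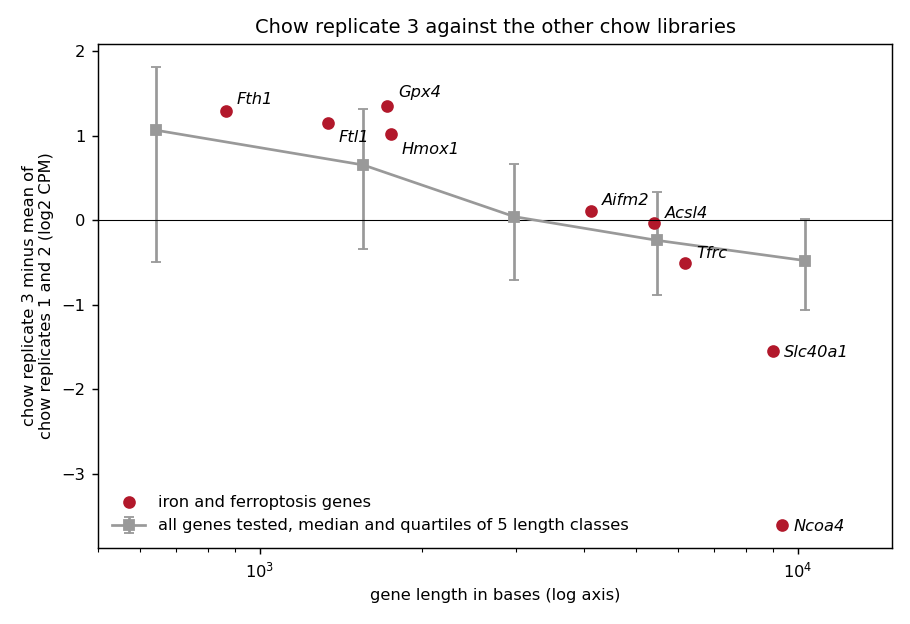
Log2 CPM of chow replicate 3 minus the mean of chow replicates 1 and 2 (vertical axis) against gene length on a log axis, for the 9 tested genes (red) and for all tested genes as the median and quartiles of 5 length classes (grey). Short ferritin, Gpx4 and Hmox1 transcripts are high in that library, and the long Slc40a1 and Ncoa4 transcripts are low.

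The wider pathways were described with 5 lists holding 142 other genes, of which 140 were matched in the table and 128 were tested. The lists group genes by topic, and both ferroptosis lists mix genes of opposite action. A list's median is therefore not a measure of more or less ferroptosis or defence. None of the 128 passed in METTL3 versus HFD+STZ hearts, 2 passed in METTL3 versus chow hearts, and none in HFD+STZ versus chow hearts. Unadjusted edgeR p-values under 0.05 were had by 14, 26 and 18 of the 128 in those comparisons, shares of 10.9%, 20.3% and 14.1%, beside 9.06%, 21.7% and 12.1% of all genes. By list the shares ran from 4.35% to 22.7%, from 12.5% to 40.9% and from 8.70% to 20.8%. The haem list was highest in both METTL3 comparisons, and lipid substrates and drivers were highest in HFD+STZ versus chow hearts. No list was tested as a set. DESeq2 called 1, 15 and 2 of the 128, beside 129, 1509 and 305 of all 14862 genes. The median log2 fold changes of the 128 were -0.04, 0.04 and 0.02, beside -0.00, -0.01 and -0.02 for all genes tested.

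Blvrb, which encodes biliverdin reductase B, fell in METTL3 versus chow hearts. It had 1.80, 4.68, 3.40 and 3.76 CPM in METTL3 hearts, 6.25, 6.69, 7.32 and 6.39 CPM in HFD+STZ hearts, and 8.5, 9.62 and 25.3 CPM in chow hearts. The 3 groups did not overlap, with METTL3 hearts lowest and chow hearts highest, and the share of all genes in such an order was not counted. HFD+STZ versus chow hearts gave a log2 fold change of -1.12 ± 0.38 (SE, edgeR adjusted p = 0.297). Without chow replicate 3 this was -0.44 (edgeR adjusted p = 0.711). The METTL3 versus HFD+STZ difference did not pass either. The log2 fold change in METTL3 versus chow hearts was -2.08 ± 0.39 (SE, edgeR adjusted p = 0.0246), and -1.42 without chow replicate 3 (edgeR adjusted p = 0.0197). The call was lost in 6 of 23 alternatives, among them the sample code range (edgeR adjusted p = 0.174) and the removal of METTL3 replicate 1, 3 or 4 (edgeR adjusted p = 0.0606, 0.0722 and 0.0757). Blvrb is abundant in red cells, whose markers summed to 312 to 1997 CPM in METTL3 hearts and 336 to 2248 CPM in chow hearts. For that list 6 of 9 markers had counts in every library, and its part was not tested.

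Nqo1, a quinone reductase of the NRF2 antioxidant response, rose in METTL3 versus chow hearts. It had 59.4, 57.5, 68.6 and 63.8 CPM in METTL3 hearts, 57.4, 48.9, 47.2 and 57.5 CPM in HFD+STZ hearts, and 30.5, 35.8 and 13.3 CPM in chow hearts. All METTL3 and HFD+STZ hearts lay above all chow hearts, and the share of all genes in such an order was not counted. The log2 fold change was 1.23 ± 0.27 in METTL3 versus chow hearts (SE, edgeR adjusted p = 0.0347), and 0.90 without chow replicate 3 (edgeR adjusted p = 0.0100). Of 23 alternatives 12 lost the call, with an adjusted p of up to 0.168, including the removal of any 1 METTL3 heart, of HFD+STZ replicate 2 or 4, or of chow replicate 2. In HFD+STZ versus chow hearts the value was 0.99 ± 0.27 (edgeR adjusted p = 0.193), and whether it differed from the METTL3 value was covered only by METTL3 versus HFD+STZ, at 0.24 ± 0.24 (edgeR adjusted p = 0.812).

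**Figure D5:**
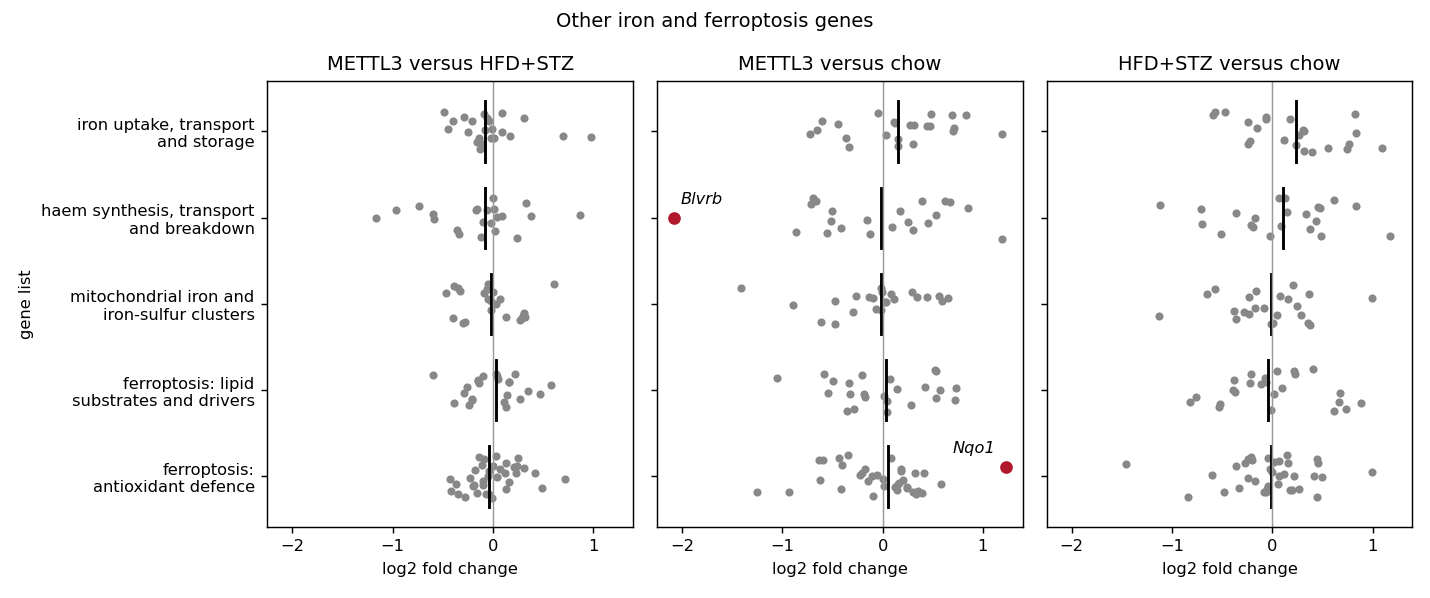
Log2 fold change (horizontal axis) of the tested genes of the 5 pathway lists in the 3 comparisons, each dot a gene and each black line a list's median. Blvrb and Nqo1 in METTL3 versus chow hearts, in red, are the only dots past the 5% threshold.

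Iron uptake, transport and storage had 23 tested genes, none past the threshold in any comparison, with medians of -0.08 in METTL3 versus HFD+STZ, 0.16 in METTL3 versus chow and 0.24 in HFD+STZ versus chow hearts. Its smallest p in METTL3 versus HFD+STZ hearts belonged to Pcbp1, an iron chaperone that loads ferritin. Pcbp1 had 101, 95.8, 108 and 98.2 CPM in METTL3 hearts, 147, 156, 126 and 134 CPM in HFD+STZ hearts, and 129, 135 and 126 CPM in chow hearts. Every METTL3 heart was below every other heart, but the difference from HFD+STZ hearts, -0.48 ± 0.14, missed the threshold (SE, edgeR adjusted p = 0.351). Pcbp1 was named for its small p, and the share of all genes below both other groups in this way was not counted. DESeq2 called it (-0.50, adjusted p = 0.00386), while it was -0.27 with GC content modelled and -0.23 with length and GC content modelled. Ireb2, an iron regulatory protein gene, had the smallest p in METTL3 versus chow hearts, at 0.70 ± 0.23 (edgeR adjusted p = 0.108). Ireb2 was lowest in chow replicate 3, at 20.8 CPM, and the value was 0.44 without that library and 0.28 with length and GC content modelled. It passed with DESeq2 (0.69, adjusted p = 0.0465) and without chow replicate 1 (0.97, edgeR adjusted p = 0.0392). Bmp6, a signal that raises hepcidin in the liver, had the smallest p in HFD+STZ versus chow hearts, at 1.10 ± 0.40 (edgeR adjusted p = 0.330), or 0.67 without chow replicate 3. Left without both chow replicate 3 and HFD+STZ replicate 1, it passed (0.81, edgeR adjusted p = 0.0190).

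Aco1 and Fbxl5 were added for their role after their values were seen. Aco1, the other iron regulatory protein gene, averaged 32.5 ± 5.36 CPM in METTL3 hearts, 33.7 ± 2.29 CPM in HFD+STZ hearts and 29.9 ± 5.69 CPM in chow hearts (SD). Fbxl5, which marks IREB2 for breakdown when iron is plentiful, averaged 48.5 ± 8.86 CPM in METTL3 hearts, 54.1 ± 13.1 CPM in HFD+STZ hearts and 43.5 ± 1.84 CPM in chow hearts. For both, the differences were within the spread between libraries (lowest edgeR adjusted p = 0.536). Of the 140 matched genes, Alas2 held the hairpin pattern in a 5′ UTR and Bola3 in a 3′ UTR. Alas2, the erythroid starter of haem synthesis, averaged 18.4 ± 15.2 CPM in METTL3 hearts, 18.4 ± 7.39 CPM in HFD+STZ hearts and 12 ± 2.04 CPM in chow hearts.

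Haem synthesis, transport and breakdown had 22 tested genes with medians of -0.08 in METTL3 versus HFD+STZ, -0.01 in METTL3 versus chow and 0.11 in HFD+STZ versus chow hearts. Beside Blvrb, the smallest p in METTL3 versus HFD+STZ hearts was that of Flvcr1, a transporter in the plasma membrane first described as a haem exporter. Flvcr1 differed by 0.87 ± 0.29 (SE, edgeR adjusted p = 0.422), with METTL3 replicate 2 the highest of the 11 libraries at 13.9 CPM, and passed when chow replicate 3 and HFD+STZ replicate 1 were left out (1.10, edgeR adjusted p = 0.0448). Mitochondrial iron and iron-sulfur clusters had 23 tested genes, none past the threshold, and medians of -0.02, -0.01 and -0.01 in the same comparisons. Lyrm4, a partner of the cysteine desulfurase NFS1, had 12 to 15.1 CPM in METTL3 hearts and 7.55 to 9.44 CPM in HFD+STZ hearts without overlap. Its difference of 0.61 ± 0.22 did not pass (edgeR adjusted p = 0.447). Bola1 had this list's smallest p in METTL3 versus chow hearts, at -1.41 ± 0.39 (SE, edgeR adjusted p = 0.0685). The value was -0.48 without chow replicate 3. Bola1 passed in 3 of 23 alternatives, among them DESeq2 (-1.44, adjusted p = 0.0135). Iba57 had the smallest p in HFD+STZ versus chow hearts, at 0.99 ± 0.29 (edgeR adjusted p = 0.234). It was 0.44 with the sample code range in the model, and passed in 2 of 23 alternatives.

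Lipid substrates and drivers of ferroptosis had 24 tested genes, none past the threshold, and medians of 0.03 in METTL3 versus HFD+STZ, 0.03 in METTL3 versus chow and -0.04 in HFD+STZ versus chow hearts. Por, the cytochrome P450 reductase, had 44.1, 31.2, 43.0 and 38.9 CPM in METTL3 hearts, 45.5, 65.2, 58.8 and 67.9 CPM in HFD+STZ hearts, and 42.6, 39.5 and 34.4 CPM in chow hearts. All HFD+STZ hearts exceeded all others, in a gene named for its small p, and the share of all genes that did so was not counted. The METTL3 versus HFD+STZ difference was -0.59 ± 0.17 (SE, edgeR adjusted p = 0.353). It was -0.36 with GC content modelled, and passed when chow replicate 3 and HFD+STZ replicate 1 were left out (-0.71, edgeR adjusted p = 0.0265). Lpcat3, which inserts polyunsaturated chains into phospholipids next to ACSL4, gave 0.74 ± 0.22 in HFD+STZ versus chow hearts (edgeR adjusted p = 0.226), with no overlap between those groups, and passed when chow replicate 3 and HFD+STZ replicate 1 were left out (0.88, edgeR adjusted p = 0.0354). Cybb, the NADPH oxidase subunit of phagocytes, gave -1.06 ± 0.31 in METTL3 versus chow hearts (edgeR adjusted p = 0.0781). The macrophage marker sums did not overlap between these groups either, although Vsig4 went the other way and Adgre1, Cd163, Mrc1, Timd4 and Clec4f overlapped. The part of these markers in the Cybb values was not tested. DESeq2 called Cybb (-1.07, adjusted p = 0.0213).

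The list of antioxidant defence against ferroptosis had 36 tested genes. It also holds regulators, such as Keap1 and Atf3, that are not themselves antioxidant enzymes. Its medians were -0.04 in METTL3 versus HFD+STZ, 0.05 in METTL3 versus chow and -0.01 in HFD+STZ versus chow hearts. Gclc, the catalytic subunit of the first enzyme of glutathione synthesis, had 22.7, 23.6, 23.0 and 23.3 CPM in METTL3 hearts, 15.7, 16.9, 15.6 and 17.8 CPM in HFD+STZ hearts, and 18.7, 18.4 and 15.2 CPM in chow hearts. Every METTL3 heart exceeded every other heart, in a gene named for its small p. The share of all genes that did so was not counted. The METTL3 versus HFD+STZ difference was 0.49 ± 0.14 and did not pass (SE, edgeR adjusted p = 0.353). Atf3, a stress-induced transcription factor, gave -1.45 ± 0.37 in HFD+STZ versus chow hearts (edgeR adjusted p = 0.152), with 8.60, 3.34, 2.86 and 3.47 CPM in HFD+STZ hearts and 9.17, 13.2 and 15.3 CPM in chow hearts. DESeq2 called it (-1.46, adjusted p = 0.0169), as did edgeR without a filter (-1.43, adjusted p = 0.0366) and without HFD+STZ replicate 1 (-1.96, adjusted p = 0.00744).

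For the 3 genes with the widest range over the libraries, the tested genes of most similar pattern were found by the root mean square difference of centred log2 CPM over 11 libraries. Ncoa4, with a range of 3.86 on the log2 scale, was closest to Med12l (difference 0.18), Atp7a (0.20), Tm9sf1 (0.21), Arhgef11 (0.22) and Tmod1 (0.22). Slc40a1, with a range of 3.25, was closest to Fzd8 (0.19), Pdzrn3 (0.23), Hadha (0.26), Pik3r1 (0.30) and Gm13910 (0.30). Ftl1, with a range of 2.02, was closest to Dhrs7 (0.16), Tsr3 (0.18), Hmgn1 (0.18), Ogfod2 (0.18) and Igfbp6 (0.19). Chow replicate 3 was the extreme library for all 3 genes and so weighs on these distances.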

How the data were processed

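Whole-heart RNA in 11 libraries was sequenced after ribosomal RNA depletion (RiboZero) and library preparation with a NEB kit, per the labels' protocols. The authors deposited raw counts per gene for all libraries in a single table. FastQC, Salmon and mm10 are listed, unversioned, in the submitters' processing notes. Annotation release, strand setting and treatment of shared reads: not given in the sources used here. Of the table's 54532 identifiers, 54409 are in GENCODE M21 and 53499 have the same coordinates there. Gene lengths are those in the table. Titles gave the groups. Separate animals are not stated for the replicates, and p-values then measure only the spread between these libraries, which may be technical.

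Counts were tested with edgeR 4.0.16 (limma 3.58.1) in R 4.3.3: TMM scaling, filterByExpr (minimum count 10, minimum total 15), a joint quasi-likelihood model of the 3 group means over 11 libraries, and Benjamini-Hochberg adjustment over 14862 genes at 0.05. Each standard error was computed from the fitted coefficient and F value. The log2 CPM used a prior count of 2. The procedure was tested on simulated data with known changes. Depth was 13900531 to 16952639 counts per library.

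Alternatives were DESeq2 1.42.0, its size factors, scaling without mitochondrial genes, other filters, only the groups compared, the replicate block, the sample code range, single libraries left out, and chow replicate 3 with HFD+STZ replicate 1 left out. Loess offsets for gene length and GC content (span 0.5, GC content for 99.9% of tested genes) and the ratios between genes were added after seeing the data. The 10 genes and the 5 lists were chosen with earlier results of these data known. Named list genes are those past the threshold, at most 4 a list, or else the gene with the smallest p in each list and comparison. The list genes Hjv and Fdx2 were not matched. No 2 libraries of a group agreed within sampling noise. Figures used matplotlib 3.10.9 in Python 3.11.15.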

Additional observations from a re-analysis of the deposited data

Results flagged for a closer look

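Within the groups of 4, 6 values lay far from those of the other 3 libraries, by the gap to the nearest library relative to the whole range. This was among 56 sets, each a gene or a ratio between genes in a group. Chance flags about 1 in 20 such groups if they are independent. These sets are not, since the ratios reuse genes and the list genes were picked by p. Among the iron handling and ferroptosis genes, Fth1 was low in HFD+STZ replicate 4, at 1666 CPM with the nearest library at 1985 CPM. Acsl4 was high in HFD+STZ replicate 3, at 20.4 CPM with the nearest at 12.6 CPM. Without that library the METTL3 versus HFD+STZ log2 fold change of Acsl4 was 0.78, against 0.56 with it, and it did not pass the threshold in any alternative. Among the pathway list genes, Atf3 was high in HFD+STZ replicate 1 at 8.6 CPM (nearest 3.47), Cybb in HFD+STZ replicate 3 at 13.0 CPM (nearest 6.98), Flvcr1 in METTL3 replicate 2 at 13.9 CPM (nearest 8.15) and Lyrm4 in METTL3 replicate 4 at 15.1 CPM (nearest 12.5).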

How the results depend on the processing

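Of 630 values of the 9 tested iron and ferroptosis genes over 23 or 24 alternatives per comparison, 587 kept their direction and side of the threshold, 6 newly passed and 37 changed sign. Of 350 values of named list genes, 314 were kept, 18 lost the call and 18 gained it. The number of genes past the threshold moved far more. In METTL3 versus HFD+STZ hearts it was 0, against 129 with DESeq2 and 403 with chow replicate 3 and HFD+STZ replicate 1 left out. In METTL3 versus chow hearts it was 475, against 1509 with DESeq2, 747 without a filter, 54 with only the groups compared, 1 with the sample code range, 1258 with both libraries left out, 130 with GC offsets and 211 with both offsets, and 34 to 750 with single libraries left out. In HFD+STZ versus chow hearts it was 25, against 305 with DESeq2, 190 without a filter, 42 with a stricter filter, 0 with only the groups compared, 1 with the sample code range, 493 with both libraries left out, 54 with length offsets and 60 with both offsets, and 1 to 215 with single libraries left out. The cause was not tested.

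With the replicate number as a block the counts were 0, 5 and 2. Same-numbered libraries did not deviate together (correlations of -0.23 to 0.16 over 10 pairs). With groups this small and chow replicate 3 standing apart, this cannot show whether the numbers pair the hearts. Blvrb and Nqo1 lost their calls in METTL3 versus chow hearts under the block, with edgeR adjusted p-values of 0.0931 and 0.133.

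Every sign change was of a value that missed the threshold. In METTL3 versus HFD+STZ hearts, GC offsets gave 0.085 for Ftl1 and 0.091 for Gpx4, and both offsets gave 0.11 for Ftl1, 0.12 for Gpx4 and 0.0074 for Fth1. In METTL3 versus chow hearts, Ncoa4 was -0.21 with the sample code range and -0.38 with both libraries left out. There Fth1 was 0.40 with both libraries left out, 0.10 with length offsets and 0.14 with both offsets, and Aifm2 was 0.039 with GC offsets and 0.0090 with both. In HFD+STZ versus chow hearts, Tfrc was -0.017 under the block, -0.018 with both libraries left out and -0.15 with the sample code range. Fth1 was 0.049 under the block, 0.013 with the sample code range, 0.48 with both libraries left out and 0.13 with length offsets or both offsets. Hmox1 was 0.071 with the sample code range and 0.20 with both libraries left out, Gpx4 was 0.19 with both left out, and Acsl4 was -0.22 with the sample code range and -0.0069 with length offsets.

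With single libraries left out, the METTL3 versus chow values ran from -0.41 to 0.40 for Fth1, -0.38 to 0.75 for Ncoa4 and -0.19 to 0.0047 for Aifm2. The HFD+STZ versus chow values ran from -0.30 to 0.25 for Tfrc, -0.31 to 0.50 for Fth1, -0.10 to 1.03 for Ncoa4, -0.30 to 0.31 for Hmox1, -0.70 to 0.16 for Gpx4 and -0.17 to 0.14 for Acsl4. Groups of 3 or 4 hearts, a chow group in which 1 library stands apart, and sample codes that hold all chow hearts in a single range limit every comparison with chow.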

Other observations

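Trf and Hamp, iron genes with their main expression in the liver, were scarce in these hearts, and other liver-made genes of the lists are not given here. Trf, which encodes transferrin, averaged 2.89 ± 1.73 CPM in METTL3 hearts, 3.07 ± 1.28 CPM in HFD+STZ hearts and 4.56 ± 3.82 CPM in chow hearts (SD). Hamp, which encodes hepcidin, the hormone that degrades ferroportin, averaged 0.267 ± 0.357 CPM in METTL3 hearts, 0.255 ± 0.322 CPM in HFD+STZ hearts and 0.266 ± 0.300 CPM in chow hearts. Ftmt, mitochondrial ferritin, was at 0 in all 11 libraries. Alb, a hepatocyte marker, reached 53.9 CPM in METTL3 replicate 1 and 10.7 CPM in HFD+STZ replicate 1, and stayed under 3 CPM in the other libraries. Lcn2, an iron-siderophore binding protein released by neutrophils and stressed epithelia, averaged 15 ± 6.43 CPM in METTL3 hearts, 20.5 ± 13.4 CPM in HFD+STZ hearts and 12.1 ± 14 CPM in chow hearts, a spread wider than the differences. Neutrophil markers, 4 of 6 with counts in every library, summed to 1.96 to 10.3 CPM in METTL3 hearts, 4.2 to 38.2 CPM in HFD+STZ hearts and 6.06 to 7.99 CPM in chow hearts, and their part in the Lcn2 values was not tested. These genes were chosen after their values were seen.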
